A study of Saccharomyces cerevisiae with 4 samples.

Results

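The genes described here encode the proteins of the large subunit of the cytosolic ribosome of the budding yeast Saccharomyces cerevisiae. They were taken as every open reading frame of the deposited value table whose name, case ignored, matched a gene of the R64 reference with an RPL symbol (RPL, a number and at most a letter A or B) or with 1 of the stalk protein symbols RPP0, RPP1A, RPP1B, RPP2A and RPP2B. Of 81 such reference genes, 78 were found among the 6211 open reading frames. RPL36B, RPL41B and RPL43B were not matched and were not analysed here. All 78 had a value on every array and entered the test.

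The tested cells were a strain labelled GCN2c, which the sample labels call a mutant and the design text calls overexpressing, and they were set against a wild-type (WT) strain. Strain background, mating type and the nature of the GCN2c allele are not given in the sources used. Both strains grew at 28 °C in the rich medium YPD to an absorbance of 0.6, with no treatment named. Total RNA of both was labelled with Cy5 and Cy3 and hybridised together on 4 arrays. The GCN2c RNA carried Cy5 on replicates 1 and 3, while replicates 2 and 4 had it in Cy3.

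The ribosome joins amino acids in its large subunit, and RNA forms the catalytic centre. The large-subunit proteins hold that RNA in shape, line the tunnel through which the new protein leaves, and form the flexible stalk that recruits translation factors. In yeast most of them are encoded by a pair of gene copies named A and B, left from an ancient genome duplication. Their transcription depends on the factors Rap1, Fhl1, Ifh1 and Sfp1 and is known to be high in fast growth and lowered in stress or starvation. Gcn2 is a kinase that phosphorylates the initiation factor eIF2 when uncharged tRNA accumulates, which lowers general translation and raises that of Gcn4, an activator of amino acid synthesis genes.

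Values are log2 ratios as the authors deposited them. They are read as GCN2c over WT, the likely direction, because GCN2c is in the first, Cy5, channel of replicates 1 and 3. The arrays of opposite dye orientation correlated above 0 across genes as deposited, so all were read in the same direction. That correlation cannot tell GCN2c over WT from its reverse. The sample titles put WT first ("WT vs GCN2"), no label states the direction, and turning every array would swap every sign below. Under this reading ARG1, an arginine synthesis gene activated by Gcn4, stood at 4.70 and 5.12 on replicates 1 and 3 and at 4.66 on replicates 2 and 4 (limma adjusted p = 0.00332). GCN2 itself stood at -0.39, 0.098 and -0.68 in the same order (mean -0.33 ± 0.39, SD, n = 3; adjusted p = 0.453), so no higher level in GCN2c was measured at its spot.

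The arrays of replicates 2 and 4 were close to identical. Over 6136 genes their difference stayed within 0.01 of a constant for 97.5% of genes, with an SD of 0.0638, against an SD of 0.852 between replicates 1 and 3. For 77 of the 78 large-subunit genes the difference stayed within the same 0.01. Both were averaged and count as 1 sample here, which leaves n = 3, and a value "on" or "for" replicates 2 and 4 is their mean. The design text calls all 4 arrays biological replicates, which the values of replicates 2 and 4 go against. Which cultures the arrays share is not given, so p-values may measure a spread that is partly technical.

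Some markers of alpha cells also set the arrays with GCN2c in Cy3 apart. MF(ALPHA)1, which encodes the mating pheromone of alpha cells, stood at -0.92 and -1.42 on replicates 1 and 3 and at 4.93 on replicates 2 and 4. STE3, the alpha-cell receptor gene, stood at 0.17 on replicate 1 and at 3.76 on replicates 2 and 4, with no value on replicate 3. MF(ALPHA)2 stood at -0.77, -0.097 and 1.69, while SAG1, the alpha agglutinin gene, stood at 0.025, -0.84 and 0.068. The 6 markers of a cells had a median of -0.36 on replicate 1, -0.33 on replicate 3 and -0.41 for the Cy3 arrays. The lowest of them was MFA2, a gene of the a-cell pheromone, at -1.55, -1.34 and -0.40 (limma adjusted p = 0.128, and 0.0233 without replicates 2 and 4). STE2, the a-cell receptor gene, stood at -0.88, -0.39 and -0.28, and AGA2 at -0.071, -1.20 and 0.25. The other a-cell markers were lowest on the Cy3 arrays. MFA1 stood at -0.39, 0.17 and -1.11, STE6 at -0.34, -0.27 and -0.59, and BAR1 at -0.19, -0.006 and -0.42. Markers of haploid cells had means from -0.34 to 0.23 and markers of meiosis from -0.51 to 0.59. No marker passed the test of the mean over all 3 replicates. MF(ALPHA)1 was among the 3 genes past the threshold for the difference between dye orientations (Cy5 minus Cy3 -6.10, limma adjusted p = 0.0204). Without replicates 2 and 4, MF(ALPHA)1 passed with a negative mean (-1.17, limma adjusted p = 0.0444). In such bulk RNA more cells of a type and more RNA per cell cannot be told apart. The part of these markers in the results below was not tested. For large-subunit genes, a sign or a pass that changed without replicates 2 and 4 is given. Such changes are given only in part for pairs and other genes. Without those arrays n = 2, both with GCN2c in Cy5, so strain and dye cannot be told apart in that setting.

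All 78 large-subunit genes had a negative mean log2 ratio, while 55.9% of all 6130 genes tested did. The count was 74 without replicates 2 and 4, and 77 without replicate 1 or after each array was centred on its median. It was also 77 with a dye term in the model or with replicates 2 and 4 counted separately. The share over all genes in these settings is not given. The median gene stood at -0.40 on replicate 1, at -0.47 on replicate 3 and at -1.04 for replicates 2 and 4. These medians averaged -0.64 ± 0.35 (SD, n = 3). The medians of all genes on the same arrays were -0.03, -0.05 and -0.09. Of the 78 genes, 68 had a negative ratio on every replicate, against 28.1% of genes with 3 values. Negative ratios numbered 72 on replicate 1, 72 on replicate 3 and 76 for replicates 2 and 4, where 52.7%, 54.2% and 55.7% of all genes were.

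No single large-subunit gene passed the test over all genes. At a limma adjusted p under 0.05, 0 of 78 passed, while 2.06% of all genes did, 0.326% with a negative ratio. One-class SAM on the 3 replicates, the kind of test the design text names, also called 0 of the 78 (background 3.54%). At an unadjusted p under 0.05, 48 of the 78 passed, all with a negative ratio, against 20.7% of all genes in either direction and 10.7% with a negative ratio. The count of 0 became 5 without replicates 2 and 4 (1.33% of all genes passed with a negative ratio), 1 without replicate 1 (0.516%) and 2 among genes with values on all 4 arrays (0.667%). It became 43 with a dye term in the model (4.4%) and 40 with the near-identical arrays counted separately (9.62%), all with a negative ratio. The dye-term fit takes its residual from replicates 1 and 3 only. Its p therefore does not measure the spread between orientations or among arrays with GCN2c in Cy3. With replicates 2 and 4 turned the other way, 33 of the 78 had a negative mean and the mean of medians was 0.053.

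**Figure D1:**
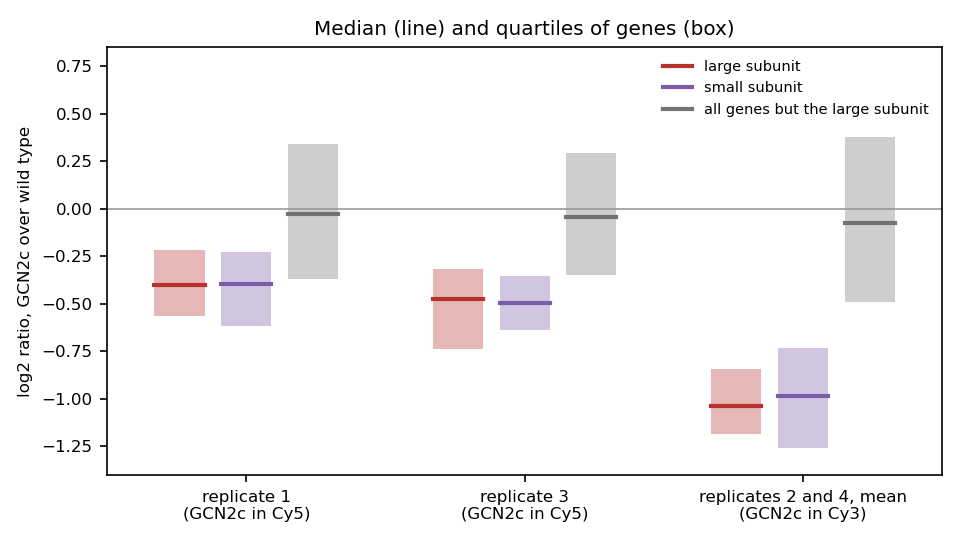
Log2 ratio of GCN2c over WT (vertical axis) by replicate (horizontal axis), with the median as a line and the quartiles as a box, for the 78 large-subunit genes, 55 small-subunit genes and all genes other than the large-subunit ones. The large-subunit medians lie at -0.40, -0.47 and -1.04, and their boxes lie below 0 on every replicate.

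The spread among the 78 genes was narrow beside that of all genes. Their mean ratios ran from -1.18 to -0.05 with an SD of 0.20 across genes, against an SD of 0.60 over all genes tested. Of the 78, 60 lay below -0.5, and 12.7% of all genes lay below the highest of those 60, at -0.505. The SD between replicates was of a like size in both sets, with a median of 0.366 over the large-subunit genes and 0.335 over all genes.

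RPL9A had the lowest mean. It stood at -0.81 and -1.23 on replicates 1 and 3 and at -1.51 for replicates 2 and 4, averaging -1.18 ± 0.35 (SD, n = 3; limma adjusted p = 0.0653), and 0.832% of all genes had a lower mean. It passed without replicate 1 (adjusted p = 0.0454) and among genes with values on all 4 arrays (adjusted p = 0.0458).

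RPL20B was the most even of the low genes. Its ratios were -0.96, -1.02 and -1.03, a mean of -1.004 ± 0.041 (SD, n = 3; limma adjusted p = 0.0609), and its SD was the smallest of all 78. RPL20B passed without replicates 2 and 4 (adjusted p = 0.0452) and among genes on all 4 arrays (adjusted p = 0.0451). The mean corresponds to 0.499 of the WT level.

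RPL34B, RPL16A and RPL21B followed. RPL34B stood at -0.87, -1.17 and -0.80 (mean -0.95 ± 0.20, limma adjusted p = 0.0803), and RPL16A at -0.73, -0.98 and -1.07 (mean -0.93 ± 0.17, adjusted p = 0.0817). RPL21B stood at -1.14, -0.88 and -0.70 (mean -0.91 ± 0.22, adjusted p = 0.0935). Without replicates 2 and 4, RPL34B and RPL21B passed (adjusted p = 0.0470 and 0.0467), as did RPL21A (-0.98, adjusted p = 0.0454). RPL21A had stood at -0.94 and -1.02 on replicates 1 and 3 and at -0.42 on replicates 2 and 4.

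At the other end, RPL15A was close to 0. It stood at -0.26 and -0.10 on replicates 1 and 3 and at 0.19 on replicates 2 and 4 (mean -0.054 ± 0.23, limma adjusted p = 0.905), and 50.4% of all genes had a lower mean. Its sign turned with the setting: the mean was 0.0017 after each array was centred on its median. RPL22B stood at 0.12, -0.15 and -0.36 (mean -0.13 ± 0.24) and RPL38 at -0.23, 0.029 and -0.42 (mean -0.21 ± 0.23). RPL31B, whose protein sits at the tunnel exit, stood at 0.25 and 0.081 on replicates 1 and 3 and at -1.03 on replicates 2 and 4 (mean -0.23 ± 0.70). Its mean was 0.17 without replicates 2 and 4.

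**Figure D2:**
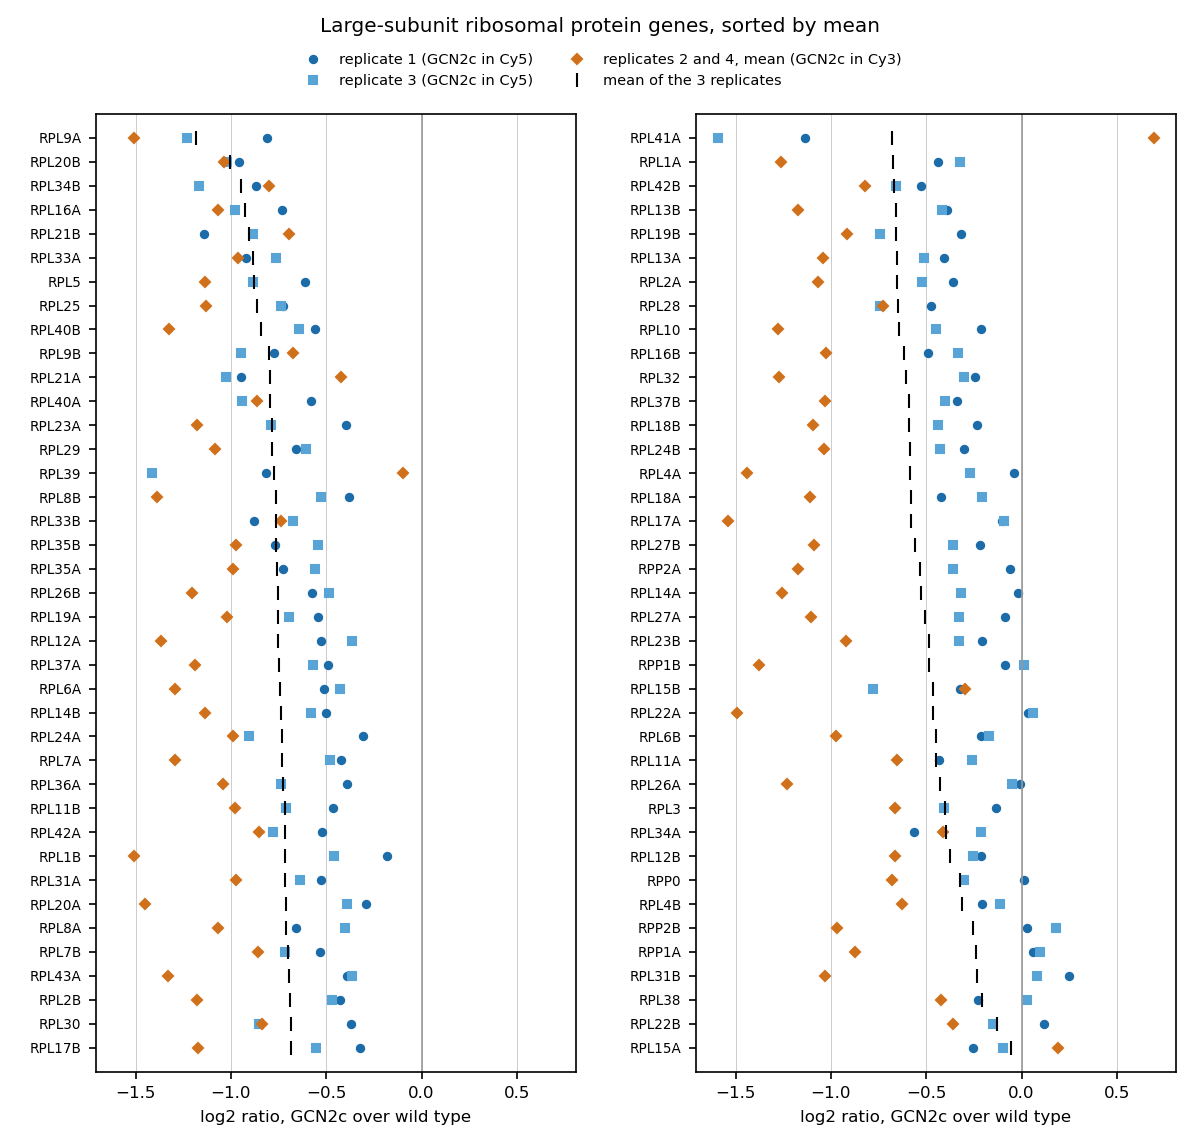
Log2 ratio of GCN2c over WT (horizontal axis) of each of the 78 large-subunit genes (vertical axis, sorted by mean), with a point for replicate 1, replicate 3 and the mean of replicates 2 and 4, and a bar for the mean of the 3. Most diamonds of replicates 2 and 4 lie left of the other points, while RPL41A and RPL39 have theirs on the right.

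The level of the ratios followed the dye orientation. Of the 78 genes, 69 had a higher ratio on the arrays with GCN2c in Cy5 (mean of replicates 1 and 3) than on those with GCN2c in Cy3, against 58.5% of all genes. The median difference, Cy5 minus Cy3, was 0.56 over the large-subunit genes and 0.13 over all genes. The lower quartile of the large-subunit genes was -0.56 on replicate 1, -0.74 on replicate 3 and -1.18 in the Cy3 orientation. Over all genes it was -0.38, -0.36 and -0.51, so it was also lowest there in the Cy3 orientation. In a model with the dye as a term, 0 of 78 passed for the difference (background 0.05%), and 25 had an unadjusted p under 0.05 (background 17.1%), 23 of them with the higher ratio in Cy5. That model has 1 residual degree of freedom, and the Cy3 orientation rests on 1 independent replicate, so dye, culture and array cannot be told apart.

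Genes with the widest gap between orientations, chosen after their values were seen, lay in both directions. RPL22A stood at 0.034 and 0.061 in the Cy5 orientation and at -1.49 in the Cy3 one. RPL17A, a protein of the tunnel wall, stood at -0.10, -0.090 and -1.54. RPL41A, which encodes the shortest protein of the ribosome, ran the other way, with -1.14 and -1.59 on replicates 1 and 3 and 0.70 for replicates 2 and 4. RPL39, another very short protein of the tunnel, stood at -0.82, -1.41 and -0.095. The difference, Cy5 minus Cy3, was 1.54 for RPL22A, 1.44 for RPL17A, -2.06 for RPL41A and -1.02 for RPL39. RPL41A passed without replicates 2 and 4 (mean -1.37, limma adjusted p = 0.0308), and its mean over all 3 replicates was -0.68 ± 1.21 (adjusted p = 0.454).

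The order of the genes was shared by the arrays of one orientation. Across the 78 genes replicates 1 and 3 correlated at Pearson r = 0.79 and Spearman rho = 0.76. For replicates 2 and 4, Pearson r was -0.27 against replicate 1 and -0.29 against replicate 3, or -0.15 and -0.14 without RPL41A. Without RPL39 and RPL41A these were -0.11 and -0.040. Over all genes the same correlations were 0.48, 0.18 and 0.29. The points share spots and each array's own normalization, replicates 1 and 3 also share the dye orientation, genes are not independent replicates, and the values carry no p.

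**Figure D3:**
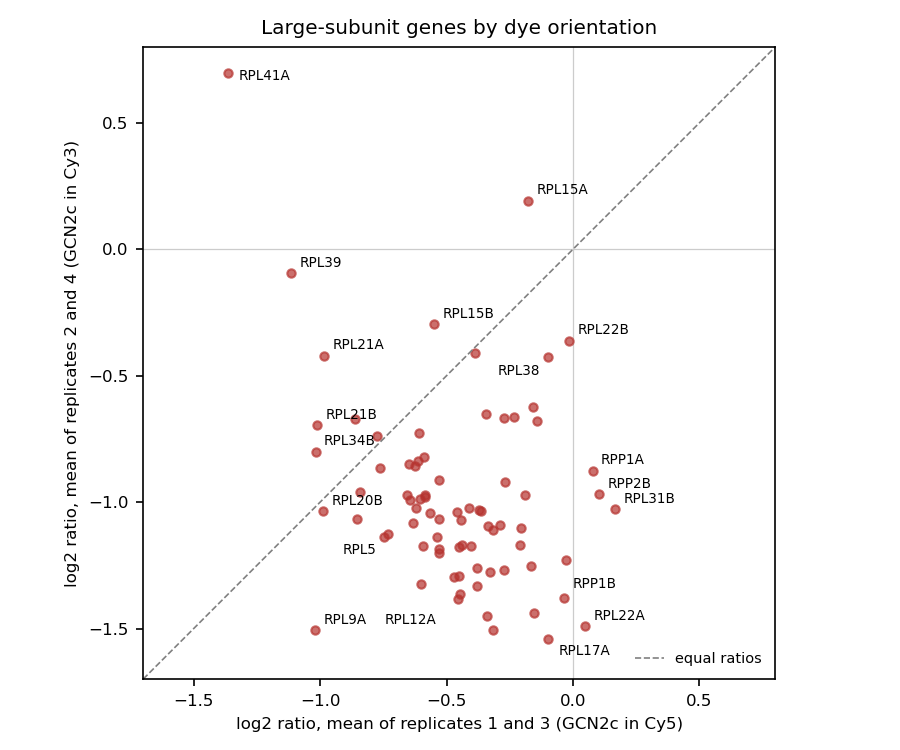
Each of the 78 large-subunit genes by its mean log2 ratio on replicates 1 and 3, with GCN2c in Cy5 (horizontal axis), and on replicates 2 and 4, with GCN2c in Cy3 (vertical axis), with a dashed line at equal ratios. The 69 genes below the line include RPL22A and RPL17A, and RPL41A lies farthest above it.

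The stalk recruits elongation factors to the ribosome. The median of its 7 genes was -0.06 and -0.25 on replicates 1 and 3 and -0.97 for replicates 2 and 4 (mean -0.43 ± 0.48, SD, n = 3), beside the medians of -0.40, -0.47 and -1.04 over all 78 genes. None passed, and the difference between the stalk and the other genes was not tested. RPP0, the protein on which the stalk is built, stood at 0.015, -0.30 and -0.68 (mean -0.32 ± 0.35, limma adjusted p = 0.438). The acidic proteins bind RPP0 as pairs of a P1 and a P2 type. RPP1A stood at 0.060, 0.095 and -0.88, and RPP2B at 0.027, 0.18 and -0.97. Their means of -0.24 ± 0.55 and -0.25 ± 0.62 became 0.078 and 0.10 without replicates 2 and 4.

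The other stalk genes had at least 1 negative ratio on the arrays with GCN2c in Cy5. RPP1B stood at -0.085, 0.014 and -1.38 (mean -0.48 ± 0.78), and RPP2A at -0.061, -0.36 and -1.17 (mean -0.53 ± 0.57). RPL12A and RPL12B encode the same protein of the stalk base. RPL12A stood at -0.53, -0.36 and -1.37 (mean -0.75 ± 0.54, limma adjusted p = 0.195), and RPL12B at -0.21, -0.25 and -0.66 (mean -0.38 ± 0.25, adjusted p = 0.333).

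The partners of the 5S RNA, which enter the subunit with it as a preformed particle, had ratios below 0 on every replicate. RPL5 stood at -0.61, -0.88 and -1.14 (mean -0.88 ± 0.26, SD, n = 3; limma adjusted p = 0.105). RPL11B stood at -0.46, -0.71 and -0.98 (mean -0.72 ± 0.26, adjusted p = 0.141), and RPL11A at -0.43, -0.26 and -0.65 (mean -0.45 ± 0.20, adjusted p = 0.255). None of the 3 passed, and RPL5 was the lowest of the 11 genes with no A or B copy.

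Among the proteins around the catalytic centre, the 4 genes RPL2A, RPL2B, RPL3 and RPL10 had medians of -0.29, -0.46 and -1.12. RPL3, whose protein reaches into the centre, stood at -0.13, -0.41 and -0.67 (mean -0.40 ± 0.27, limma adjusted p = 0.311). RPL10, which joins last in the cytoplasm and contacts the tRNA sites, stood at -0.21, -0.45 and -1.28 (mean -0.65 ± 0.56, adjusted p = 0.247). The L1 stalk, which guides used tRNA out of the ribosome, is made of the protein of RPL1A and RPL1B. RPL1A stood at -0.44, -0.32 and -1.26, and RPL1B at -0.18, -0.46 and -1.51. Neither passed.

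In the exit tunnel the 5 wall genes (RPL4A, RPL4B, RPL17A, RPL17B and RPL39) had medians of -0.20, -0.27 and -1.17, and 0 passed. RPL4A stood at -0.040, -0.27 and -1.44. The 9 genes at the tunnel exit, where chaperones and the targeting machinery dock, had medians of -0.54, -0.56 and -1.02 (mean -0.71 ± 0.27, SD, n = 3). RPL25, the docking protein for targeting factors, was the lowest of them at -0.72, -0.74 and -1.13 (mean -0.86 ± 0.23, limma adjusted p = 0.104), and RPL31B the highest. Of these 9 genes, 7 had an unadjusted limma p under 0.05 (background 20.7%), beside 48 of all 78 large-subunit genes. The count was also 7 among the 9 late-joining genes described next.

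The genes whose proteins join late, in the cytoplasm, had medians of -0.52, -0.64 and -0.99 over 9 genes (mean -0.72 ± 0.24, SD, n = 3). RPL40B, which encodes a ubiquitin fusion cut to release the ribosomal protein, was the lowest of them at -0.56, -0.64 and -1.32 (mean -0.84 ± 0.42, limma adjusted p = 0.141). The 11 genes with no A or B copy had medians of -0.37, -0.61 and -0.84, and all 11 had a negative mean. RPL28 carries the known sites of cycloheximide resistance and stood at -0.48, -0.74 and -0.73 (mean -0.65 ± 0.15, adjusted p = 0.146). RPL30, whose protein represses splicing of its own transcript, stood at -0.37, -0.86 and -0.84 (mean -0.69 ± 0.28, adjusted p = 0.154).

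**Figure D4:**
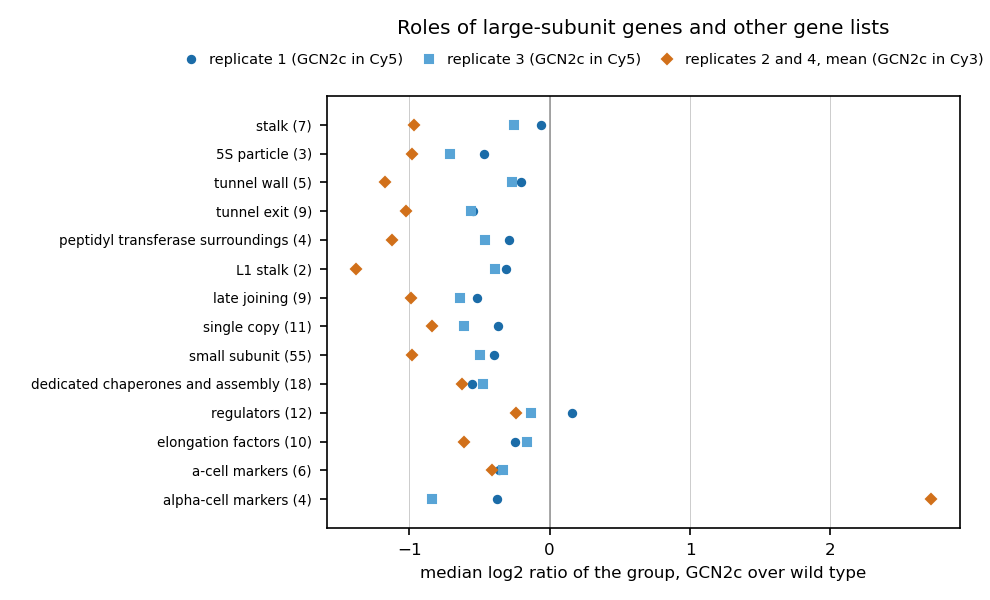
Median log2 ratio of GCN2c over WT (horizontal axis) of the large-subunit genes by role and of other gene lists (vertical axis, number of genes in brackets), with a point for each replicate. The stalk and the tunnel wall lie near -0.06 to -0.27 on replicates 1 and 3 and near -1 on replicates 2 and 4, while the assembly factors lie close together on all 3 and the alpha-cell markers stand at 2.72 on replicates 2 and 4.

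The A and B copies were then compared within each replicate, as the log2 ratio of the A copy minus that of the B copy, for 32 pairs with both copies on the arrays. The acidic proteins RPP1A and RPP1B, and RPP2A and RPP2B, are counted among them by their names, although each pair holds distinct proteins. The A copy had the higher mean in 17 pairs and the lower in 15. The median size of the difference was 0.18, and 18 pairs differed by less than 0.25, beside 32 of all 55 A and B pairs of the table. The median SD of a pair's difference between replicates was 0.28. In 12 of the 32 pairs the difference had 1 sign on all 3 replicates, with A above B in 4 and below in 8. That was a share close to that of all pairs, where 20 of 55 had 1 sign.

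No pair passed the test of the difference. The test was adjusted over all 55 gene pairs of the table whose symbols differ only in A or B after a number, and 0 of 32 passed by limma (background 0%), with a lowest adjusted p of 0.396. At an unadjusted p under 0.05 there were 3 of 32 pairs (background 10.9%), RPL34A/RPL34B, RPL6A/RPL6B and RPL23A/RPL23B. Spots of near-identical copies can share signal, which may make a true difference look smaller, and how far they did was not tested. Without replicates 2 and 4, 2 of the 32 pairs passed, RPL31A/RPL31B and RPL20A/RPL20B, beside 5 of all 55 pairs (background 9.09%). That share was not above the background.

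The widest mean difference was that of RPL34, with A above B by 0.30, 0.96 and 0.39 (mean 0.55 ± 0.35, SD, n = 3; limma adjusted p = 0.396). RPL34A averaged -0.40 and RPL34B -0.95. RPL15A lay above RPL15B by 0.064, 0.68 and 0.49 (mean 0.41 ± 0.32). RPL15A averaged -0.054 and RPL15B -0.47.

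In other pairs the A copy was the lower. RPL9A minus RPL9B was -0.036, -0.28 and -0.83 (mean -0.38 ± 0.41, SD, n = 3), and RPL12A minus RPL12B was -0.32, -0.11 and -0.70 (mean -0.38 ± 0.30). The RPL12 and RPL9 differences kept 1 sign on every replicate and were widest on replicates 2 and 4. RPL6A minus RPL6B was -0.30, -0.26 and -0.32 (mean -0.29 ± 0.033, adjusted p = 0.396), and RPL37A minus RPL37B was -0.15, -0.17 and -0.16 (mean -0.16 ± 0.0074), the most even of the 32. RPL23A, whose protein lies at the contact with the small subunit, differed from RPL23B by -0.19, -0.46 and -0.26, A minus B (mean -0.30 ± 0.14).

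Some differences followed the dye orientation. RPL31A minus RPL31B was -0.78 and -0.72 on replicates 1 and 3 and 0.056 for replicates 2 and 4 (mean -0.48 ± 0.47), and without the last its adjusted p was 0.0299. RPL20A minus RPL20B was 0.67 and 0.63 on replicates 1 and 3 and -0.42 for replicates 2 and 4 (mean 0.29 ± 0.61, adjusted p = 0.0299 without the last). RPL22A minus RPL22B was -0.086, 0.21 and -1.13 (mean -0.33 ± 0.70). The smallest differences were those of RPL35, RPL18 and RPL13, at 0.0023 ± 0.034, 0.0068 ± 0.21 and 0.0068 ± 0.12. RPL35A averaged -0.76 and RPL35B -0.76, with the 3 differences of the pair at 0.041, -0.016 and -0.018.

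Across the 32 pairs the ratios of A and B correlated at Pearson r = 0.54 on replicate 1, 0.26 on replicate 3 and 0.23 for replicates 2 and 4, with Spearman rho of 0.47, 0.17 and 0.0040. Both copies share an array and part of their sequence, and the values carry no p. The 23 other pairs, most of them small-subunit genes, had a median size of 0.17 and 0 passed.

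**Figure D5:**
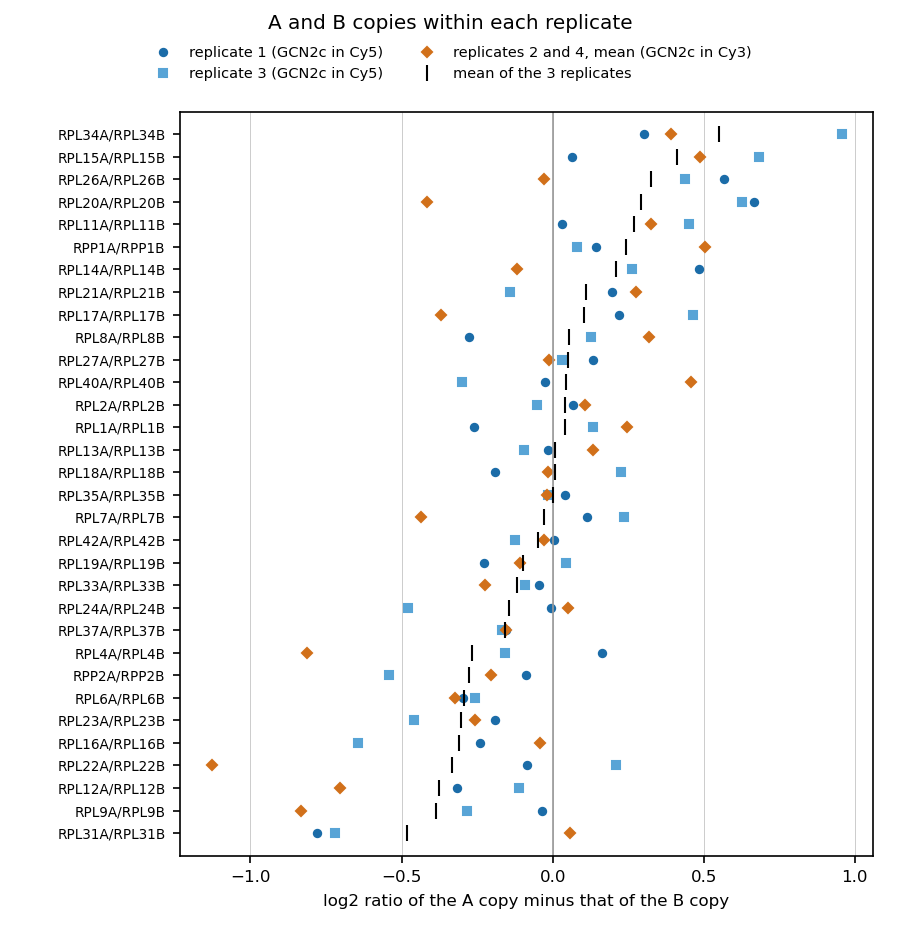
Log2 ratio of the A copy minus that of the B copy (horizontal axis) for 32 pairs of large-subunit genes (vertical axis, sorted by mean), with a point for each replicate and a bar for the mean. Most bars lie within 0.25 of 0, and the points of RPL31A/RPL31B and RPL20A/RPL20B on replicates 2 and 4 lie on the other side of 0 from those on replicates 1 and 3.

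The small-subunit genes encode the proteins of the other subunit of the ribosome. Their medians were -0.40, -0.49 and -0.98 over 55 genes (mean -0.63 ± 0.31, SD, n = 3), beside -0.40, -0.47 and -1.04 for the large subunit. The difference was not tested. The SD across gene means was 0.28 for the small subunit and 0.20 for the large. The quartiles of these means were about equally far apart, at -0.78 and -0.57 for the small subunit and -0.75 and -0.53 for the large. All 55 had a negative mean, and 0 passed limma (37 at an unadjusted p under 0.05, background 20.7%). RPS10B had the lowest mean of them at -2.33, -4.03 and 0.39 (mean -1.99 ± 2.23). Without replicates 2 and 4, RPS10B averaged -3.18 and passed (limma adjusted p = 0.0233). RPS16A had the highest mean at -0.16, 0.62 and -0.57 (mean -0.035 ± 0.60, positive at 0.021 after centring).

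Factors that carry and assemble large-subunit proteins were also measured. All 18 had a negative mean, 10 had an unadjusted p under 0.05 (background 20.7%) and 0 passed. Their medians were -0.56, -0.48 and -0.62 (mean -0.55 ± 0.073, SD, n = 3). RRB1, the chaperone of the RPL3 protein, was the lowest at -0.93, -1.09 and -0.92 (mean -0.98 ± 0.093, limma adjusted p = 0.0649). RRB1 passed without replicates 2 and 4 (mean -1.01, adjusted p = 0.0444) and among genes with values on all 4 arrays (adjusted p = 0.0492). REI1, a cytoplasmic maturation factor, was the highest at -0.47, -0.31 and 0.28 (mean -0.17 ± 0.40).

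Of 10 elongation factor genes 0 passed and 3 had an unadjusted p under 0.05 (background 20.7%), with medians of -0.25, -0.16 and -0.61. TEF4, a subunit of the exchange factor of elongation factor 1, stood at -0.64, -0.90 and -1.55 (mean -1.03 ± 0.47, limma adjusted p = 0.107). CAM1, its paralogue, stood at 0.22, 0.46 and -0.37 (mean 0.10 ± 0.43). The 12 regulators of ribosomal protein transcription had medians of 0.16, -0.13 and -0.24, and 0 passed, with 1 at an unadjusted p under 0.05 (background 20.7%). IFH1, a coactivator bound at ribosomal protein promoters, had the lowest mean at -0.40, -0.31 and -1.21 (mean -0.64 ± 0.49, adjusted p = 0.230), while TOR2, a kinase of the growth pathway upstream, was the highest at 0.65, 0.21 and 0.20 (mean 0.35 ± 0.25, adjusted p = 0.361).

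Stress and slow-growth genes had medians near 0. Of 10 such genes 9 were tested and 0 passed, 2 had an unadjusted p under 0.05 (background 20.7%), 5 had a negative mean, and the medians were 0.13, -0.04 and -0.07. SPI1, a cell wall protein gene induced in stationary phase, had the highest mean at 1.67, 1.53 and 0.81 (mean 1.34 ± 0.46, SD, n = 3; limma adjusted p = 0.0644), and it passed without replicates 2 and 4 (adjusted p = 0.0181). HSP12, a small heat shock protein gene, stood at 0.48, 0.92 and 0.71 (mean 0.70 ± 0.22, adjusted p = 0.140), and these were the genes at an unadjusted p under 0.05. GPH1, glycogen phosphorylase, had the lowest mean at 0.45, 1.65 and -3.59 (mean -0.50 ± 2.75), with a negative ratio only on replicates 2 and 4.

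A few large-subunit genes lie next to another ribosomal protein gene in the R64 gene order. RPL24A and RPL30, transcribed away from each other, averaged -0.73 ± 0.37 and -0.69 ± 0.28 (SD, n = 3). RPL13A and RPP1A, transcribed toward each other, averaged -0.65 ± 0.34 and -0.24 ± 0.55. RPL13B and the divergent RPS16A averaged -0.66 ± 0.44 and -0.035 ± 0.60. Over the 8 such neighbour pairs with both genes tested, the left gene minus the right gene ran from -0.63 to 0.20.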

How the data were processed

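The values were the log2 ratios of the series' value table, 1 per open reading frame and array, as the authors deposited them. Per the labels, the authors left out defective spots and spots that did not exceed 2 times their local background in both channels. No source used here states log base, centring or direction, and base 2 is assumed. The array medians were -0.034, -0.089, -0.045 and -0.085 on replicates 1 to 4. Spot intensities were not used here, and the number of arrays limits the precision.

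Of 6211 names, 5662 matched R64 locus tags with case ignored, and all 78 genes described matched exactly. Replicates 2 and 4 were averaged. The 6130 genes measured on 3 or 4 arrays were tested against 0, two-sided, by an intercept-only limma model (version 3.58.1, R 4.3.3) moderated by eBayes, with Benjamini-Hochberg adjustment at 0.05 over all genes. A minus B differences were tested the same way over 55 pairs. Functions were tested on simulated data. "Background" is the share of all genes (or pairs) meeting the same rule. The genes and lists were chosen with earlier results of these data known.

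Members named were the 5 lowest and 5 highest, the stalk and 5S genes, RPL3, RPL10, RPL28, RPL30 and RPL39, and any past a threshold when replicates were left out. Of the pairs, the 5 widest and 3 closest were named, with any past a threshold in that way, and of the other lists the ends. Another 20 genes and 4 pairs were named after their values were seen, the remaining a-cell markers to complete their list, and ARG1 to show the direction. Alternatives were 4 separate arrays, turned replicates 2 and 4, a dye term, centring, scaling, filters, a robust prior, SAM at a false discovery rate of 5% and left-out replicates. Planned descriptions of promoter motifs and protein identity were not made here for want of sequences.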

Additional observations from a re-analysis of the deposited data

How the results depend on the processing

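The mean of the replicate medians of the large-subunit genes stayed negative, from -0.75 to -0.64 with 1 replicate left out and at -0.44 without replicates 2 and 4, and became 0.053 with replicates 2 and 4 turned. The count of large-subunit genes past the threshold was 0, against 40 with 4 separate arrays, 43 with a dye term, 2 among genes on all 4 arrays and 5 without replicates 2 and 4, and it lay between 0 and 1 with 1 replicate left out. The count of pairs was 0, and 2 without replicates 2 and 4. Over all genes 126 passed, between 74 and 148 with 1 replicate left out, 1062 with 4 separate arrays, 590 with a dye term, 191 among genes on all 4 arrays, 353 without replicates 2 and 4, 70 with a trend and robust prior, 212 by SAM and 0 with replicates 2 and 4 turned. The cause of these shifts was not tested.

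Some log2 ratios changed sign. With replicates 2 and 4 turned, by that setting's own construction, the value was 0.17 for IFH1, -2.42 for MF(ALPHA)1, -0.85 for MF(ALPHA)2, -1.79 for STE3, 1.90 for GPH1, 0.21 for RPL10, 0.16 for RPL12A, 0.065 for RPL12B, 0.040 for RPL13A, 0.12 for RPL13B, 0.45 for RPL17A, 0.17 for RPL1A, 0.29 for RPL1B, 0.53 for RPL22A, 0.11 for RPL22B, 0.041 for RPL3, 0.45 for RPL31B, 0.075 for RPL38, 0.041 for RPL40B, 0.38 for RPL4A, 0.13 for RPP0, 0.34 for RPP1A, 0.44 for RPP1B, 0.25 for RPP2A, 0.39 for RPP2B, 0.34 for RPS16A and 0.00083 for TEF4. The A minus B difference was then 0.091 for RPL12, -0.081 for RPL13, 0.42 for RPL22 and 0.17 for RPL9. Without replicates 2 and 4, the ratio was -1.17 for MF(ALPHA)1, -0.43 for MF(ALPHA)2, 1.05 for GPH1, 0.048 for RPL22A, 0.17 for RPL31B, 0.078 for RPP1A, 0.10 for RPP2B and 0.23 for RPS16A, and A minus B was -0.056 for RPL13 and 0.062 for RPL22. With 4 separate arrays or a dye term, CAM1 stood at -0.014, RPL15A at 0.0077 and A minus B of RPL35 at -0.0027. After centring, RPL15A stood at 0.0017 and RPS16A at 0.021, and after scaling RPS16A at 0.021 and A minus B of RPL13 at -0.0045. With 1 replicate left out, the values ran from -0.054 to 0.048 for RPL15A, from -0.36 to 0.026 for RPS16A, from -0.074 to 0.11 for CAM1, from -0.017 to 0.011 for A minus B of RPL35 and from -0.10 to 0.11 for A minus B of RPL18.

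Each ratio already compares both strains within an array, so the tests against 0 are paired by array. No paired analysis was possible beyond that, because there is 1 group of ratios and a replicate block has nothing to pair. Promoter motifs and protein identity were not analysed here.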
